A study of Mus musculus with 4 samples.

Results

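*Fas*, *Tnfrsf10b*, *Tnfrsf1a*, *Eda2r*, *Casp8*, *Perp* and *Aen* are 7 mouse genes of cell killing, taken here together as the death receptors and other killer genes linked to p53. They were chosen by name, and a p53 peak was assigned to a gene when the peak centre lay within 50 kb of any of its transcription start sites (TSSs). By this rule 8 of the 7384 p53 peaks of the deposited list belonged to 6 of the 7 genes, and *Tnfrsf1a* had none. The peak closest inside the limit was 48809 bp from its gene (*Aen*), and the one closest outside it 78108 bp (*Tnfrsf1a*). The whole annotation holds 22367 protein-coding genes on the chromosomes of the list.

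The peaks come from chromatin immunoprecipitation sequencing (ChIP-Seq), which pulls down DNA with an antibody to the protein on it and finds where the fragments pile up over input DNA. Antibodies against p53 were used in untreated Ba/F3 cells (a mouse B cell progenitor line), in Ba/F3 cells 3 h after irradiation with 3 Gy, and in untreated HPC7 cells (a mouse multipotent hematopoietic progenitor line). A further library, for the active chromatin mark H3K27ac, came from the irradiated Ba/F3 cells. Each condition had 1 library without replicates, which leaves every value here without an estimate of replicate error. Both lines have wild-type p53, and per the labels both stably express a MYSM1 protein with a triple FLAG tag and were grown with puromycin, Ba/F3 in medium conditioned by WEHI cells and HPC7 with SCF. The untreated and irradiated cells therefore share the tagged MYSM1, and each cell type is represented by 1 line.

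The list gives the position of each peak, all 100 bp wide, and an order number. The order number ranks the peaks by the fold change of p53 binding in Ba/F3 cells after irradiation, with 1 for the largest gain, and the study divided this order into peaks of increased, little changed and reduced binding. No read count, signal or p-value stands beside a peak, and no column names the library in which it was called. Sequencing depth is therefore unknown, the order number has no error, and binding in HPC7 cells and H3K27ac were not analysed here. Expression of these genes was not analysed here either.

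The death receptors Fas, Tnfrsf10b (DR5, the mouse TRAIL receptor) and Tnfrsf1a (the TNF receptor 1) span the cell membrane and carry a death domain on their inner side, through which the adaptors FADD and TRADD bring caspase-8 together so that it cleaves and activates itself. Eda2r, the receptor of ectodysplasin A2, belongs to the same receptor family but has no death domain. Perp is a membrane protein of desmosomes and Aen an exonuclease that degrades DNA and RNA in dying cells, and both genes were found as p53 targets. p53 binds DNA as a tetramer on a pair of similar 10-base parts, each made of purines, a core with C at its start and G at its end (CNNG) around A or T bases, and pyrimidines.

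The sequences below are the mm9 plus strand, 5′ to 3′, of member peaks, and they show how closely each peak holds the p53 consensus. The capitals mark the best match to its 20 positions within 100 bp of the peak centre where one had at most 3 mismatches, and lower case letters between the capitals are a spacer. The consensus reads the same on the opposite strand, so both strands were covered.
Fas peak 3168, chr19:34366809-34366908: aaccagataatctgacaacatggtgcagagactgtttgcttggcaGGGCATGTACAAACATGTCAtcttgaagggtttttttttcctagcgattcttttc
Tnfrsf10b peak 1463, chr14:70213045-70213144, no match: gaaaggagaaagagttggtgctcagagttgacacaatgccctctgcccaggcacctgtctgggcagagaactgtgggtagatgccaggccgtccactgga
Casp8 peak 1341, chr1:58831547-58831646: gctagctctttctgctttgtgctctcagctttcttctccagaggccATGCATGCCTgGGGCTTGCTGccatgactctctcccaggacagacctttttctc
Casp8 peak 5828, chr1:58809354-58809453: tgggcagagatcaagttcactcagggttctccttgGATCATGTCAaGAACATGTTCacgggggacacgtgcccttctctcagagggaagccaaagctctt
Perp peak 96, chr10:18604149-18604248: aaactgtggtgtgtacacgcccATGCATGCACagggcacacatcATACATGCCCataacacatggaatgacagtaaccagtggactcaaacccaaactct

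For *Eda2r* a longer stretch is shown, chrX:94571873-94572064, because its closest contiguous match (capitals) lies 131 bp from the peak centre, outside the 100 bp searched on either side; the peak's own 100 bp are the last bases of the run. For *Aen* the match at the TSS is given alone, chr7:86040823-86040842.
Eda2r peak 4999 and site: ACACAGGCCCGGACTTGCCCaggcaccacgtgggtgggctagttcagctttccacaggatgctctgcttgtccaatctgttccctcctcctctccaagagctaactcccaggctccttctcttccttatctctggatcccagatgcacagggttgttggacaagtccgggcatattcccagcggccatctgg
Aen peak 6281, match: GGGCTTGTCCGGGCAAGGAG

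Among the 7 genes, 6 had a peak within 50 kb, against 40.4% of all protein-coding genes. Within 10 kb 3 of 7 had one (*Fas*, *Eda2r* and *Aen*), against 15.6%. *Casp8* and *Aen* each had 2 peaks within 50 kb, a number of 2 or more being reached by 14.3% of protein-coding genes. All 8 peaks were of the increased class, which holds 89.9% of the list, so this count is near the background. The gene itself had the nearest protein-coding TSS at 5 of the 8 peaks, where 40.2% of all 13514 pairs of a gene and a peak within 50 kb have this property. The median order number was 4004.5 for the 8 peaks and 3692.5 for the list, but 2315.5 with the nearest peak of each of the 6 genes alone, so whether it lay above or below that of the list depended on this choice. No test was run on these counts, since the genes were chosen with results of these data known.

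**Figure D1:**
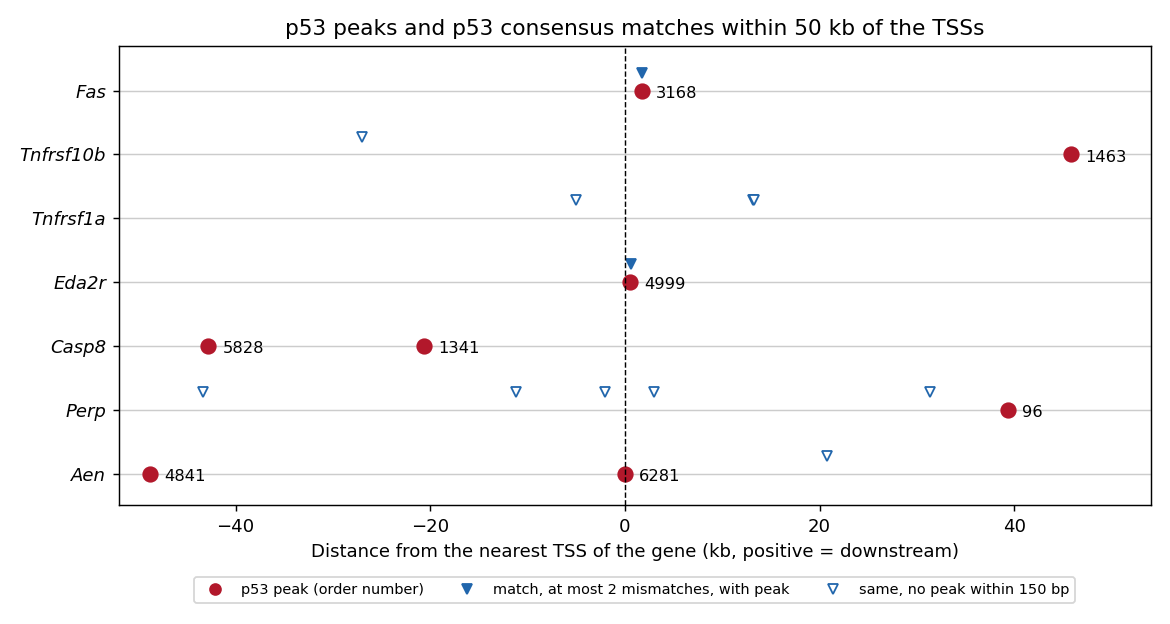
Position of p53 peaks (red circles, labelled with the order number) and of p53 consensus matches with at most 2 mismatches (triangles) relative to the nearest TSS of each of the 7 genes, in kb, positive in the direction of transcription; filled triangles have a peak centre within 150 bp, open ones none. Peaks lie close to the TSS in *Fas*, *Eda2r* and *Aen*, 20622 to 48809 bp away otherwise, and *Tnfrsf1a* has matches but no peak.

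Among the receptors, *Fas* (ENSMUSG00000024778.6, chr19:34365149-34402260, plus strand) had 1 peak, number 3168, or 42.9% down the list. Its centre lay 1709 bp downstream of the TSS, in intron 1 of both annotated transcripts. The match in capitals above has 2 mismatches and no spacer, and its middle was 5.5 bp from the peak centre. A contiguous match as good as this was found in 40.8% of all peaks and in 0.203% of windows of the same length 10 kb upstream of the peaks. Of the 8 peaks it had the closest contiguous match within 100 bp of its centre, and none of the 8 reached 0 or 1 mismatch, which 6.15% and 17.8% of the list do.

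*Tnfrsf10b* (ENSMUSG00000022074.5, chr14:70167279-70184210, plus strand) was assigned 1 peak, number 1463, or 19.8% down the list. The peak lay 45815 bp downstream of the *Tnfrsf10b* TSS, beyond the end of the gene. It was 784 bp upstream of a TSS of *Rhobtb2*, the nearest protein-coding gene. No contiguous pair of 10-base parts with both cores was present within 100 bp of the centre, as at 12.8% of all peaks and in 61.5% of the upstream windows. With a spacer of up to 13 bases the best match had 4 mismatches and a spacer of 9. At this spacer limit, 85.0% of all peaks and 26.9% of the upstream windows held a match with at most 4 mismatches. A contiguous match with 2 mismatches lay 27007 bp upstream of the TSS without a peak, and 528 other loci of the genome resembled its surroundings (at least 80% identity over at least 100 bp), also with no peak at any of them. How ChIP-Seq reads of repeated sequence were treated is not given in the sources used here.

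*Tnfrsf1a* (ENSMUSG00000030341.10, chr6:125299380-125312502, plus strand, 7 transcripts) had no peak within 50 kb of any TSS. The nearest peak, number 1672, lay 78108 bp upstream, with *Tuba3a*, an alpha-tubulin gene, as the nearest protein-coding gene at 14788 bp. The sequence near *Tnfrsf1a* nevertheless held 3 contiguous matches to the consensus with at most 2 mismatches, shown here because none had a peak.
0 mismatches, chr6:125323684-125323703: AGACTAGCCCAGGCTAGCTC
1 mismatch, chr6:125323615-125323634: AAACCTGCCCAAACTAGCTT
2 mismatches, chr6:125294296-125294315: ACACAAGCACGGGCAAGTCC
The matches with 0 and 1 mismatch started 69 bp apart, beyond the end of *Tnfrsf1a* and in intron 8 of the neighbouring gene *Plekhg6*. They lay 13249 and 13180 bp from the nearest *Tnfrsf1a* TSS. That TSS, at chr6:125310445, lies inside the gene, downstream of its outermost start at chr6:125299380. The match with 2 mismatches lay 5074 bp upstream of the outermost start, in exon 12 of *Scnn1a*, which encodes a subunit of the epithelial sodium channel. None of the 3 had another similar locus in the genome by the measure above. Of the 320 matches without mismatch within 50 kb of a protein-coding TSS, 68.8% had a peak centre within 150 bp, so that the perfect match at *Plekhg6* was among the minority without one. The share was 37.6% for 1 mismatch and 10.4% for 2, so that the other 2 matches were of kinds that mostly lack a peak.

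*Eda2r* (ENSMUSG00000034457.4, chrX:94529179-94572555, minus strand) had 1 peak, number 4999, or 67.7% down the list. Its centre lay 475 bp downstream of the nearest TSS, in intron 1 of all 4 transcripts. Within 100 bp of the centre the best contiguous match had 5 mismatches, whereas a spacer of 3 bases gave GCACAGGGTTgttGGACAAGTCC with 3 mismatches. A match as good, with a spacer no longer than this, was present at 64.8% of peaks and in 4.01% of upstream windows. The contiguous match with 2 mismatches in capitals above lay 131 bp from the centre and 606 bp downstream of the TSS. *Fas* and *Eda2r* were the receptor genes with a peak and a close contiguous match in intron 1.

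*Casp8* (ENSMUSG00000026029.8, chr1:58852218-58904347, plus strand), the initiator caspase of the death receptors, had 2 peaks, both upstream of the gene. Peak 1341, or 18.2% down the list, lay 20622 bp upstream between genes, with *Casp8* as the nearest protein-coding gene. Peak 5828, or 78.9% down the list, lay 42815 bp upstream, inside the neighbouring gene *Cflar*, which encodes c-FLIP, the inhibitor that competes with caspase-8 at the receptor. Its centre fell in an exon (chr1:58809183-58809690) that is exon 9 of 3 and exon 10 of 1 of the 12 *Cflar* transcripts, and in the coding sequence of 3 of these. For the other 8 transcripts it lay downstream of their end. The nearest *Cflar* TSS was 22007 bp away. Both peaks held a match with 2 mismatches and a spacer of 1 base, 7.0 and 4.0 bp from their centres. A match as good with a spacer of 0 or 1 was present at 46.6% of peaks and in 0.434% of upstream windows. Without a spacer the best matches of these peaks had 4 and 5 mismatches.

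*Perp* (ENSMUSG00000019851.7, chr10:18564877-18576879, plus strand) was assigned the peak with the largest gain among the 8, number 96, or 1.30% down the list. It lay 39321 bp downstream of the TSS and beyond the end of the gene, between genes, and *Perp* had the nearest protein-coding TSS. The best contiguous match within 100 bp of its centre had 4 mismatches. With a spacer of 12 bases 3 mismatches remained, a match found at 72.2% of peaks and in 10.6% of upstream windows when such spacers are allowed. Within 50 kb of the *Perp* TSS 5 contiguous matches with at most 2 mismatches were present, more than at any other of the 7 genes, and none had a peak centre within 150 bp. The 2 closest to the TSS were
upstream by 2027 bp, chr10:18562840-18562859: ATTCTAGCCCAGGCTTGCCC
downstream by 2956 bp in intron 1, chr10:18567823-18567842: GGGCAAGCTCTGGCATGTCA
Both have 2 mismatches. A contiguous match with 2 mismatches within 50 kb of a protein-coding TSS had a peak in 10.4% of 12027 cases, so a match of this quality without a peak is the usual case.

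*Aen* (ENSMUSG00000030609.12, chr7:86040740-86056095, plus strand, 6 transcripts) had a peak at its TSS and one far upstream. Peak 6281, or 85.1% down the list, was centred 1 bp from the nearest TSS (16 bp from that of a protein-coding transcript and 96 bp from the outermost start of the gene), in exon 1 of 3 transcripts and upstream of the other 3. The contiguous match printed above has 3 mismatches, lay 3.5 bp from the centre, and was matched in quality by 54.4% of peaks and 1.02% of upstream windows. Peak 4841, or 65.6% down the list, lay 48809 bp upstream of *Aen* and 191 bp from a TSS of *Det1*, a component of a ubiquitin ligase and the nearest protein-coding gene. It was in intron 1 of 1 and upstream of 2 of the 3 *Det1* transcripts. Its best match, 3 mismatches around a spacer of 5, was 60.0 bp from the centre (66.9% of peaks and 5.90% of upstream windows hold one as good). The GC content of the windows was 63.5% at the *Aen* TSS and 71.5% at *Det1*, the highest of the 8, against a median of 49.0% over all peaks.

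**Figure D2:**
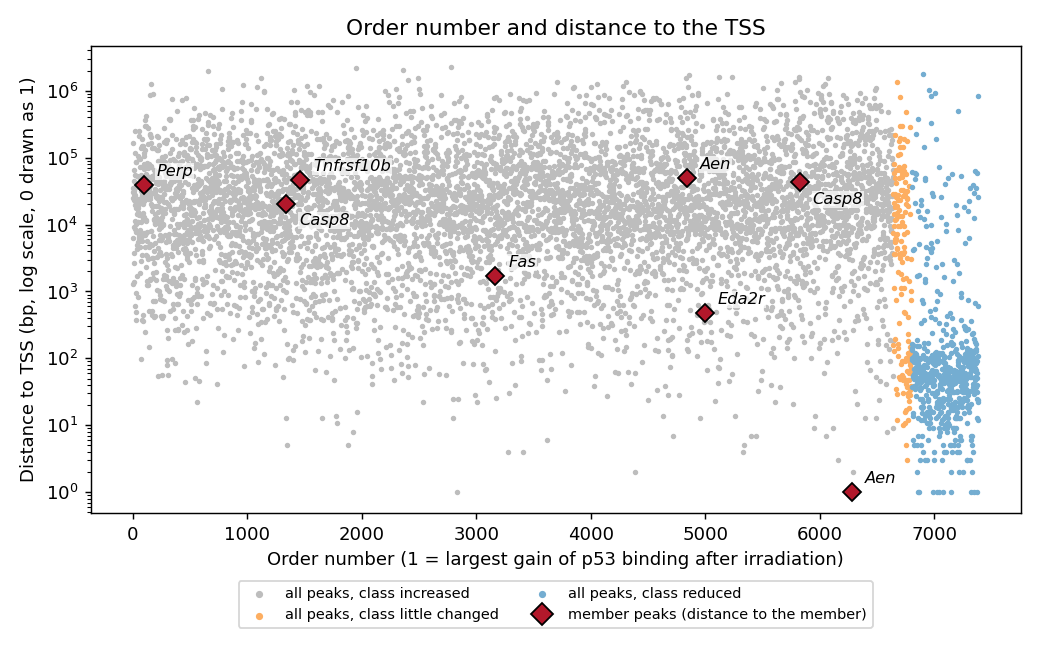
Order number (1 for the largest gain of p53 binding after irradiation) against the distance from the peak centre to a TSS in bp, on a log scale with 0 drawn as 1. Dots are all 7384 peaks with their nearest protein-coding TSS, coloured by class, and diamonds the 8 peaks with the distance to the named gene, which spread over the increased class from number 96 to 6281.

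The 3 peaks within 10 kb of their gene (*Fas*, *Eda2r* and *Aen*) had order numbers from 3168 to 6281 with a median of 4999. The 5 farther peaks ranged from 96 to 5828 with a median of 1463, so that the ranges overlapped. Over all peaks of the increased class the median was 3212.5 within 10 kb of a protein-coding TSS (2432 peaks) and 3377 farther away (4209 peaks), which shows no such order. The 2 splits differ, since the 8 peaks are split by distance to the named gene and the class by distance to any protein-coding TSS. Among the 5 farther peaks, number 1463 lay 784 bp from a TSS of *Rhobtb2* and number 4841 lay 191 bp from one of *Det1*. With so few peaks the medians of the 3 and the 5 peaks describe the 8 only.

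The p53 site, a contiguous match with at most 3 mismatches, was present at 2 of the 8 peaks (*Fas* and *Aen* 6281), against 54.4% of the list. Allowing a spacer of 0 or 1 base added both *Casp8* peaks, for 4 of 8 against 62.3%. How these counts stand to the list turned with the limits of the search, since 5 of 8 peaks against 61.5% of the list had a contiguous match with at most 4 mismatches, and 7 of 8 against 72.7% had one with at most 3 mismatches and a spacer of 0 to 13 bases. A single 10-base part without mismatch was found at 4 of 8 peaks, those of *Eda2r* and *Aen* and *Casp8* 5828 (52.5% of all peaks and 6.78% of upstream windows). None of the 8 peak regions resembled another locus of the genome by the measure above. Within 50 kb of the 7 genes there were 12 contiguous matches with at most 2 mismatches, and those of *Fas* and *Eda2r* alone had a peak centre within 150 bp. These 2 of 12 are near the 15.9% with a peak among all 14582 such matches within 50 kb of a protein-coding TSS. Of the 5 such matches within 10 kb these 2 had a peak and the others, 1 at *Tnfrsf1a* and 2 at *Perp*, had none. The share with a peak among all such matches within 10 kb of a protein-coding TSS is not given here, so this count has no background beside it. A peak list holds only what passed the caller's limit, so weaker binding there was not measured.

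**Figure D3:**
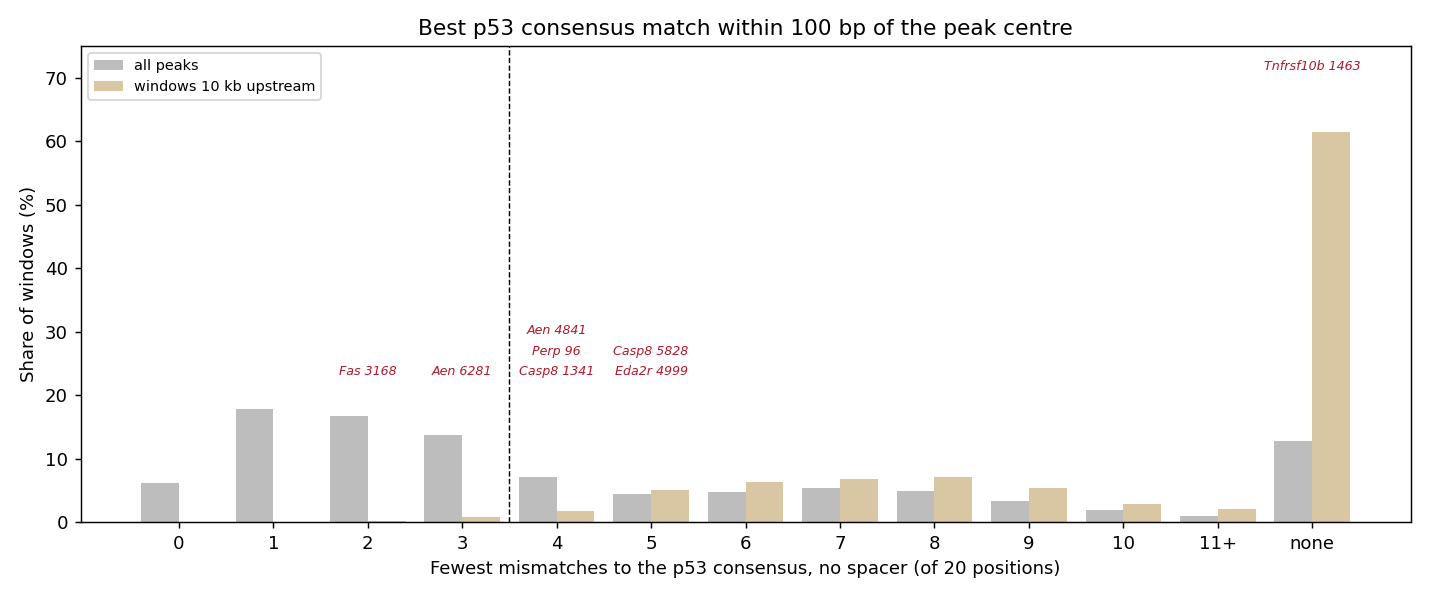
Share of windows (%, 100 bp either side of the centre) by the fewest mismatches of a contiguous match to the 20 positions of the p53 consensus, for all peaks (grey) and windows 10 kb upstream (tan); "none" has no pair of 10-base parts with both cores. Gene names with order numbers mark the 8 peaks, of which *Fas* 3168 and *Aen* 6281 lie left of the dashed line at 3 mismatches.

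RefSeq promoters (build GRCm38, 250 bases before to 50 after the start) were held for 5 of the 7 genes, namely *Fas*, *Tnfrsf1a*, *Eda2r*, *Casp8* and *Aen*. *Aen* alone had a contiguous match with at most 3 mismatches there, which 441 of 27025 genes (1.63%) have. The matches of *Fas* and *Eda2r* lie inside the genes, past the end of such a window.

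The rest of the pathway was read from lists chosen by role. Of 33 other genes of the death receptor pathway 3 (9.09%) had a peak within 10 kb and 10 (30.3%) within 50 kb, against 15.6% and 40.4% of all protein-coding genes. With the 5 of the 7 genes that belong to this pathway the counts were 5 of 38 (13.2%) and 14 of 38 (36.8%), near the background. The 6 ligands, among them *Fasl*, *Tnfsf10* (TRAIL) and *Tnf*, had none within 50 kb, and neither had the 4 other caspases. Within 50 kb of a TSS were peaks of 2 of 5 other receptors, 1 of 3 decoy receptors, 4 of 8 adaptors, 2 of 5 inhibitors and 1 of 2 genes that link to the mitochondria. The peaks of the inhibitor *Cflar* are those already counted for *Casp8*.

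Those within 10 kb, each with its nearest peak, were *Bid*, the BH3 protein cleaved by caspase-8 (2237 bp downstream of its TSS, number 1911), *Tnfrsf22*, a decoy TRAIL receptor (9386 bp, number 1298), and *Faf1*, a Fas-associated factor (8301 bp upstream, number 3104). At the last pair another gene was nearer to the peak, *Tnfrsf26* at 754 bp and the cell cycle inhibitor gene *Cdkn2c* at 1098 bp.

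Of 11 other killer genes linked to p53 outside that pathway, 6 (54.5%) had a peak within 10 kb and 8 (72.7%) within 50 kb. The peak nearest to the TSS is given for each of the 6. *Pidd1*, listed as *Lrdd*, which encodes a platform for caspase-2, had peak 4648 at 38 bp from its TSS with a match of 2 mismatches. *Siva1* had peak 5719 at 930 bp with 3 mismatches. *Zmat3*, an RNA-binding zinc finger gene, had peak 6738 at 1134 bp with a perfect match, and this peak was of the little changed class. *Ei24* (13 bp, number 6397), the nuclease gene *Dffb* (2 bp, number 6289) and *Triap1* (86 bp, number 2090) had peaks at the TSS with no contiguous match of at most 3 mismatches. Of both lists together, 9 of 44 genes (20.5%) had a peak within 10 kb and 18 (40.9%) within 50 kb, which pools a list with shares below those of all protein-coding genes and one with shares above them.

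For comparison, 7 of 18 genes of the mitochondrial pathway and 11 of 15 genes of cell cycle arrest had a peak within 10 kb, and 15 and 12 within 50 kb. The 7 genes had 3 and 6. These lists were chosen for known p53 links to different degrees and were not tested against each other. They are not fully separate, since *Bid*, which has a peak within 10 kb, is counted in both the mitochondrial and the death receptor pathway.

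**Figure D4:**
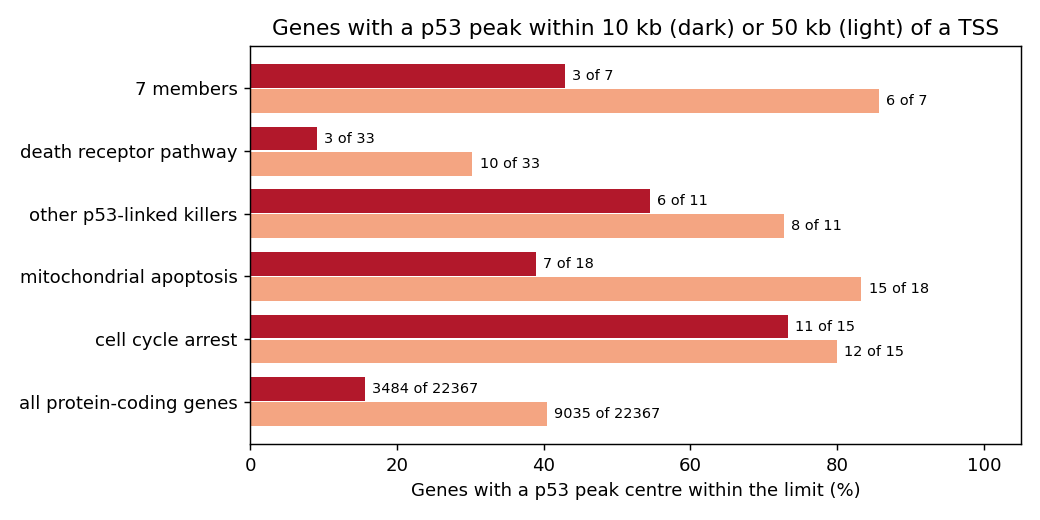
Share of genes (%) with a p53 peak centre within 10 kb (dark bars) or 50 kb (light bars) of a TSS, with the counts at the bars; the lists of the death receptor pathway and of other p53-linked killers leave out the 7 genes. The death receptor pathway without the 7 genes has 3 of 33 and 10 of 33, and 5 of 38 and 14 of 38 with those of them that belong to it. *Bid* is counted in both the death receptor pathway and the mitochondrial list.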

How the data were processed

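The authors mapped the ChIP-Seq reads to the mouse genome mm9 with Bowtie 1.0.0 and called peaks with MACS 1.4.1 (versions per the submitters' processing notes), and deposited 1 list of p53 peaks with positions and order numbers, in which no column names a library. The paper and its supplement describe the list both as peaks of Ba/F3 cells, with those shared by HPC7 cells marked in a table, and as peaks of both lines, and how calls of several libraries were merged is not given in the sources used here. The paper's supplementary rows held here were used to check that the order number follows the fold change. The genome was mm9 and the genes GENCODE M1 of that build, and positions count from 1.

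Peak centres were assigned to every TSS within 50 kb, and the p53 consensus was searched within 100 bp of the centre, with both cores required and at most 3 mismatches in 20 positions. Control windows lay 10 kb upstream. The search was tested on simulated data. Similar loci were found with BLAST+ 2.17.0. The scripts ran under Python 3.11.15 with matplotlib 3.10.9, samtools 1.23.1, pysam 0.24.0 and NumPy 2.4.6.

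The genes and lists were chosen with earlier results of these data known. All 7 genes are named with every peak within 50 kb, or else the nearest peak, and so is another gene nearest to such a peak. Other genes of the death receptor pathway and other killers with a peak within 10 kb are named with their nearest peak, while the mitochondrial and arrest lists are given as counts. The distance limit, the TSSs used, the part of the order, merging of peaks and the limits of the site search were varied. Conditions were not compared, because the deposited list holds no value per library and values of the paper's supplement were not taken as results, and the counts of genes and peaks were not tested, because the genes were chosen with results known.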

Additional observations from a re-analysis of the deposited data

How the results depend on the processing

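The number of peaks near the 7 genes fell from 8 to 3 with a limit of 10 kb, to 4 with 25 kb and to 3 in the first 3000 peaks of the order, and the number of genes with a peak fell from 6 (40.4% of all protein-coding genes) to 3 with 10 kb (15.6%), 4 with 25 kb (26.5%) and 3 in the first 3000 peaks (20.0%). With 100 kb there were 9 peaks at all 7 genes (57.8%). Protein-coding TSSs or merging of peaks within 1 kb left 8 peaks. Protein-coding TSSs moved the nearest peak of *Aen* from 1 to 16 bp and that of *Tnfrsf1a* from 78108 to 78197 bp. From the outermost start the distances were 96 bp for *Aen* and 541 bp, not 475, for *Eda2r*. Taking the nearest peak of each gene moved the median order number from 4004.5 to 2315.5, from above to below the 3692.5 of the list. The number of peaks with a p53 site, 2 of 8 (54.4% of all peaks), was 1 with at most 2 mismatches (40.8%), 5 with at most 4 (61.5%), 7 with a spacer of 0 to 13 bases (72.7%) and 4 with a spacer of 0 or 1 base (62.3%), the last chosen after seeing the data. It was 3 within 200 bp (55.2%), 2 within 50 bp (51.4%) and 3 with no demand on the cores (65.4%). Of the 44 other genes, 9 in place of 18 had a peak with a limit of 10 kb. No paired analysis was possible because there was 1 library per condition and the deposited list holds no value per library. Depth is unknown, so a missing peak does not show that p53 was not bound.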
